A study of Mus musculus with 6 samples.

Results

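Genes that let kidney cells hold or move small organic solutes and urea were read out in kidney RNA of mice that had lost 1 kidney and had drunk water with or without D-serine. The set was given by symbol and holds 8 genes (Akr1b3, Sord, Slc5a3, Slc6a6, Slc6a12, Nfat5, Slc14a1 and Slc14a2) of the 24346 in each table, and each of the 8 was present. The mice had eaten a serine-free diet for a week while drinking plain water (vehicle, 3 samples) or water with 0.1% D-serine (3 samples), then underwent unilateral nephrectomy, the removal of 1 kidney, and tissue was taken 2 days later. Both groups therefore share the diet and the operation. The sources used here give neither strain, sex nor age, and do not tie a sample to a mouse; p-values therefore cover only the spread between samples, which may be technical. The values are FPKM, fragments per kilobase of transcript and per library size, so levels of different genes can be set side by side per length.

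Cells of the inner kidney live in salt and urea at concentrations far above those of blood. They balance the salt outside by collecting organic osmolytes, which unlike salt do not disturb proteins: sorbitol, made from glucose by aldose reductase (Akr1b3) and turned into fructose by sorbitol dehydrogenase (Sord), and myo-inositol, taurine and betaine, taken up by the sodium-coupled carriers encoded by Slc5a3, Slc6a6 and Slc6a12. The transcription factor NFAT5 (also called TonEBP) switches on Akr1b3 and the carriers when tonicity rises. Urea is recycled through the channel-like transporters UT-B (Slc14a1, in descending vasa recta and red cells) and UT-A (Slc14a2, in the inner medullary collecting duct and thin limbs).

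With D-serine, the mean levels of Sord, Slc6a6 and Slc5a3 were 0.705, 0.667 and 0.742 times those with vehicle, and that of Nfat5 was 1.13 times. The other 4 genes lay at or near 0 in all libraries. Limma, a linear model fitted to log2(FPKM + 1) over the 11737 genes whose mean reached 1 FPKM, called 0 of the 4 members it could test at a Benjamini-Hochberg adjusted p of 0.05, against 9 genes (0.0767%) overall. At an unadjusted p under 0.05, 3 of the 4 members passed, all lower, where 14.6% of all tested genes were lower at that level, 13.1% were higher and 27.7% passed in either direction. The median log2 difference of the 4 was -0.46, beside -0.008 over all tested genes.

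The start regions of 3 members are shown because the results below return to them: Sord as the member whose groups did not overlap, Slc5a3 because a neighbour uses the same start region, and Slc6a12 because it carries a match to the NFAT5 recognition element. Each line is a RefSeq promoter window on GRCm38.p6 (the mm10 assembly), plus strand, 5′ to 3′, with 250 bases before a transcription start and 50 after it. They lie at chr2:122234589-122234888 for Sord, chr16:92058072-92058371 for Slc5a3 and chr6:121342324-121342623 for Slc6a12. Capitals mark the 50 bases from the start in the first pair and the match in the last.
Sord: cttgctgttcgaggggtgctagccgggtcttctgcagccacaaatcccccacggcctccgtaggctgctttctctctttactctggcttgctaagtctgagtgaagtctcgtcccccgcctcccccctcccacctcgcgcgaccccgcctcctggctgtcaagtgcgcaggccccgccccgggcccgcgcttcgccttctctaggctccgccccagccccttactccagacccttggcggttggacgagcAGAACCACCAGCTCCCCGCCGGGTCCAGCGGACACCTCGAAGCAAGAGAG
Slc5a3: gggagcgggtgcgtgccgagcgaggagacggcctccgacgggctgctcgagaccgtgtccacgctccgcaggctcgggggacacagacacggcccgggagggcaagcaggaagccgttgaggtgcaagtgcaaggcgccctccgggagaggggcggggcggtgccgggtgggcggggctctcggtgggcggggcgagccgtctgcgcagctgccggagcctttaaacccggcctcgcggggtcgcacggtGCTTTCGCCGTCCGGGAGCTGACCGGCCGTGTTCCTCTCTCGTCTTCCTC
Slc6a12: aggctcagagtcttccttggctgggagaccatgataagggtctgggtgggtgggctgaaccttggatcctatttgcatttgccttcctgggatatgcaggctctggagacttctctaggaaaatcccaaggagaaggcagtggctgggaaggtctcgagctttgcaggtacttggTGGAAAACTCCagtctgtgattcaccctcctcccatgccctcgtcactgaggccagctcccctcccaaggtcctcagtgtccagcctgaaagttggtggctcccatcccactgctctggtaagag
The search used the letters TGGAAA, the core that NFAT5 contacts, on both strands, and the longer tonicity-responsive enhancer (TonE) consensus that contains it. Of the 8 windows searched, for 4 members (Sord, Slc5a3, Nfat5 and 5 starts of Slc6a12), 1 held the core. The same window held the consensus, which begins 75 bases before that Slc6a12 start. Windows of the other members were not searched. Of all 32851 promoter windows, 21.4% held the core and 4.96% the consensus. A match describes letters and not binding, and these windows leave out more distant sequence.

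Sord (chromosome 2, 122234749 to 122265340, plus strand, mm10, 1 annotated transcript) was the most abundant member. It read 1103, 1091 and 1080.4 FPKM in the vehicle libraries and 768.7, 600.3 and 938.6 FPKM in the D-serine libraries. Every D-serine library was below every vehicle library, the vehicle libraries lay close together, and D-serine replicate 2 was the lowest. Such a separation downward was seen in 19.4% of all tested genes. The means were 1091 ± 11.4 and 769.2 ± 169 FPKM (SD, n = 3 each), which differ by -0.53 ± 0.16 on the log2 scale (SE, limma adjusted p = 0.102). Without D-serine replicate 3, the library nearest to vehicle, the difference was -0.68 and passed (limma adjusted p = 0.0496), and without D-serine replicate 2, the lowest, it was -0.36 (limma adjusted p = 0.155).

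Akr1b3, which encodes the enzyme that feeds sorbitol to Sord (chromosome 6, 34302434 to 34317478, minus strand), was listed at 0 in all 6 libraries. A listed 0 need not mean absence: 6908 genes (28.4%) were listed at 0 in all 6 libraries, and they include the ribosomal protein gene Rpl26, on which all cells depend. RefSeq annotates Gm6644 (chromosome 1, 55443695 to 55445063, GRCm38.p6) as a transcribed pseudogene. It was listed at 134, 167.2 and 118.4 FPKM in the vehicle libraries and 126.9, 111.4 and 96.4 FPKM in the D-serine libraries. It was looked up after the 0 values of Akr1b3 had been seen. Of the 902 stretches of 50 bases in its 951-base GENCODE transcript, 752 (83.4%) occur letter for letter in an annotated Akr1b3 transcript. In the other direction, the share found in Gm6644 ran from 0.4% to 68.5% over the 6 annotated Akr1b3 transcripts. Short reads from the shared stretches can match both places. How the authors' software divided such reads was not tested, and neither value can be taken as the level of Akr1b3. The groups of Gm6644 overlapped, with a log2 difference of -0.32 ± 0.16 (SE, n = 3 each, limma adjusted p = 0.228). It was -0.18 without vehicle replicate 2 and -0.51 after removal of the trend with transcript length and GC content, neither of which passed.

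**Figure D1:**
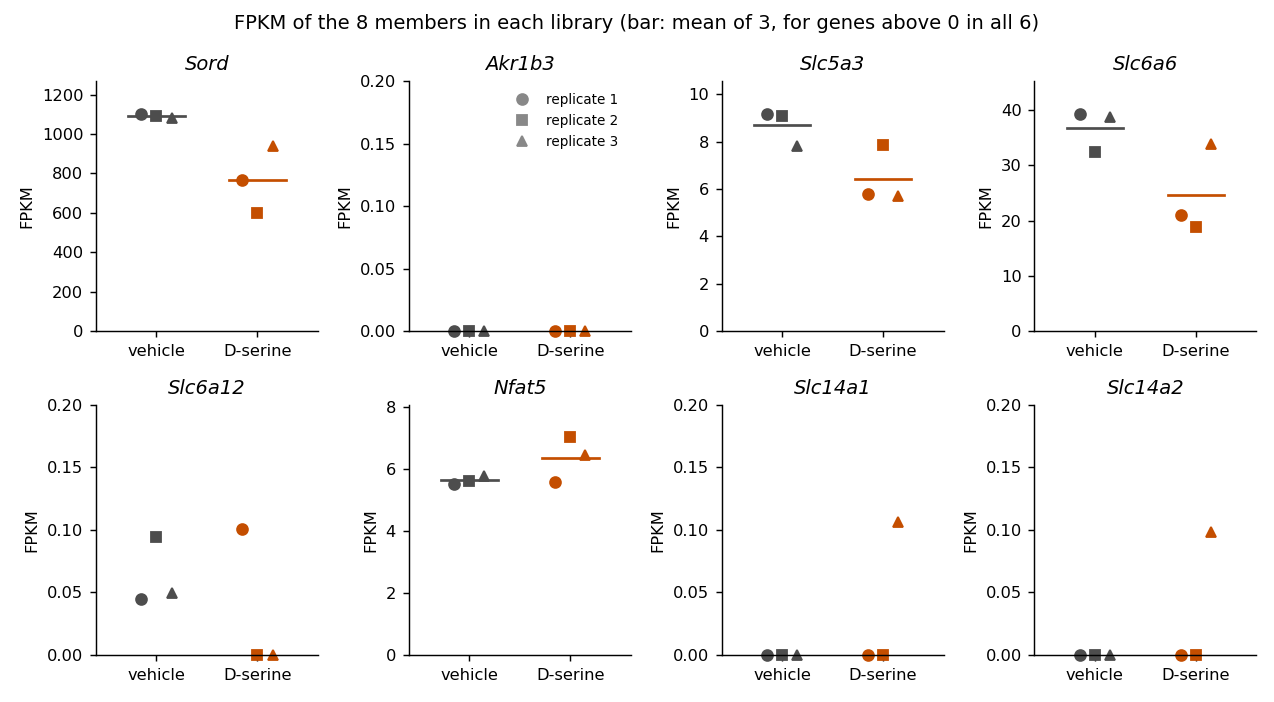
FPKM of each of the 8 genes in the 3 vehicle and 3 D-serine libraries, 1 panel a gene with its own axis from 0; symbols give the replicate, and bars the mean of 3 where all 6 libraries are above 0. Sord separates the groups, Slc6a6 and Slc5a3 are lower with a small overlap, Nfat5 overlaps, and the axes of the other 4 genes end at 0.2 FPKM.

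Slc6a6 encodes the taurine transporter TauT (chromosome 6, 91684053 to 91759066, plus strand). It read 39.3, 32.5 and 38.7 FPKM in the vehicle libraries and 21.0, 18.8 and 33.8 FPKM in the D-serine libraries. D-serine replicates 1 and 2 were low, while replicate 3 lay above the lowest vehicle library, so the groups overlapped. The means were 36.8 ± 3.80 and 24.6 ± 8.07 FPKM (SD, n = 3 each), and the log2 difference was -0.61 ± 0.21 (SE, limma adjusted p = 0.126). Without D-serine replicate 3 it was -0.85 and passed (limma adjusted p = 0.0429). Without replicate 2 of that group it was -0.44 (0.266). Across the 6 libraries Slc6a6 followed Sord closely, with a Pearson r of 0.95 on the log2 scale, while Slc5a3 followed Sord less closely (r = 0.37); these are descriptions over 6 libraries that share their group difference.

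Both Sord and Slc6a6 are expressed in the proximal tubule, and markers of that segment were lower in the D-serine libraries as well. Of 10 S1 and S2 markers 9 were lower (median -0.34 on the log2 scale), and their summed level was 3920 to 4436 FPKM in the vehicle and 3445 to 3871 FPKM in the D-serine libraries. Of the 5 tested S3 markers all 5 were lower (median -0.88), and the summed level of all 6 listed S3 markers was 788.7 to 1020.1 and 372.6 to 553 FPKM. Limma called 0 of these markers. At an unadjusted p under 0.05 there were 4 and 5, all lower, where 14.6% of all tested genes were lower at that level. Set against the mean S1 and S2 marker of the same library, the group means of Sord differed by -0.19 on the log2 scale, with overlapping groups (exact two-sided permutation p = 0.4, n = 3 each). Set against the S3 markers, Sord was higher by 0.50 (exact two-sided permutation p = 0.1, the smallest that 3 against 3 can give). For Slc6a6 the same differences were -0.27 (exact permutation p = 0.2) and 0.42 (exact permutation p = 0.1), and for Slc5a3 -0.05 (exact permutation p = 0.9) and 0.64 (exact permutation p = 0.2). With the ratio of Slc5a3 to Mrps6 below, 7 such differences were computed, and adjusted over the 7 the smallest permutation p was 0.233. In bulk tissue, fewer cells of a type and less RNA per cell cannot be told apart, and the part of the proximal tubule in these differences was not tested beyond these values.

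Slc5a3 encodes the myo-inositol carrier SMIT1 (chromosome 16, 92058322 to 92087473, plus strand). It read 9.17, 9.06 and 7.79 FPKM in the vehicle libraries and 5.77, 7.85 and 5.70 FPKM in the D-serine libraries. D-serine replicates 1 and 3 were below all vehicle libraries, and replicate 2 lay just above the lowest of them. The means were 8.68 ± 0.769 and 6.44 ± 1.22 FPKM (SD, n = 3 each), and the log2 difference was -0.39 ± 0.14 (SE, limma adjusted p = 0.13). It was -0.23 (adjusted p = 0.324) after adjustment for the length and GC content of transcripts, a shift of over 1.5 times; the longest Slc5a3 transcript has 10913 bases with 41.6% GC.

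Slc5a3 lies inside Mrps6, which encodes a small-subunit protein of the mitochondrial ribosome and runs on the same strand from 92058270 to 92112227. Both begin in the start region printed above: the RefSeq windows of the 2 genes are 14 bases apart and share 286 of 300 bases. In the GENCODE models they share 159 exon bases, 1.5% of those of Slc5a3 and 10.4% of those of Mrps6. Mrps6 read 113.2, 138.5 and 114.4 FPKM in the vehicle libraries and 148.1, 195.1 and 135 FPKM in the D-serine libraries, so its mean was higher with overlapping groups (log2 difference 0.37 ± 0.16 SE, n = 3 each, limma adjusted p = 0.178). Within each library, the Slc5a3 level came to 8.1%, 6.5% and 6.8% of the Mrps6 level with vehicle and to 3.9%, 4.0% and 4.2% with D-serine. Every D-serine library was below every vehicle library in this ratio, although neither gene alone separated the groups. On the log2 scale the ratio was -3.81 ± 0.16 and -4.63 ± 0.06 (SD, n = 3 each), a difference of -0.82 (exact two-sided permutation p = 0.1, the smallest that 3 against 3 can give). The pair was examined after its values were seen, and after adjustment for length and GC content the differences of the 2 genes were -0.23 and 0.21. Without D-serine replicate 2 that of Mrps6 was 0.22.

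**Figure D2:**
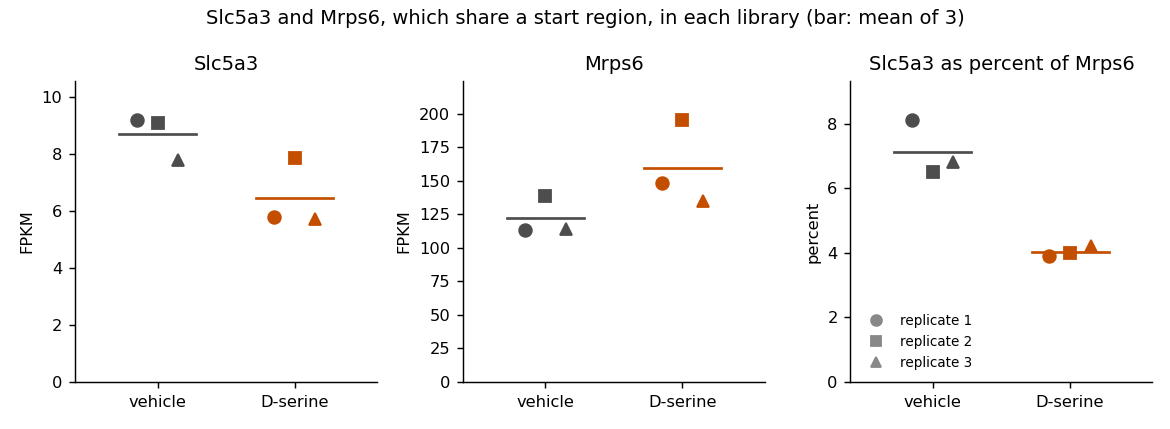
FPKM of Slc5a3 and of Mrps6, and Slc5a3 as a percent of Mrps6, in the 3 vehicle and 3 D-serine libraries (symbols give the replicate, bars the mean of 3, axes from 0). The groups overlap for each gene, and the ratio runs from 6.5 to 8.1% with vehicle and from 3.9 to 4.2% with D-serine.

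Slc6a12 encodes the betaine carrier BGT1 (chromosome 6, 121343076 to 121365775, plus strand), a classic NFAT5 target. It was listed at 0.0450, 0.0942 and 0.0498 FPKM in the vehicle libraries and 0.101, 0 and 0 FPKM in the D-serine libraries. After scaling by relative depth these values are 1, 2, 1, 2, 0 and 0 times the smallest, which is the pattern of 1 or 2 fragments in a library. No difference between the groups could be detected at this depth, and no fold is given.

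The urea transporter genes were at or near 0 in every library. Slc14a1 was listed at 0 in 5 libraries and at 0.106 FPKM in D-serine replicate 3, and Slc14a2 at 0 in the same 5 and at 0.0984 FPKM in that replicate. Both lie on chromosome 18, and neither passed the minimum of 1 FPKM for the test. Other genes of the cells that carry UT-A were also low: 5 of 7 thin limb markers (Bst1, Slc4a11, Sptssb, Epha7 and Fst) reached at most 0.601 FPKM in any library, with Fst listed at 0 in all 6. The 7 markers of the urothelium that lines papilla and pelvis summed to between 0.504 and 2.35 FPKM in a library. Aqp1, a thin limb marker shared with the proximal tubule, ran from 121.6 to 365.3 FPKM. The summed level of the 10 principal cell markers of the collecting duct was 467.2 to 622.4 FPKM with vehicle and 685.4 to 1029 FPKM with D-serine, so the collecting duct as such was present. The labels name the kidney and no zone of it. For red cells, which also carry UT-B, the summed level of the marker genes was highest in vehicle replicate 1 (346.6 FPKM), where Slc14a1 was listed at 0.

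Nfat5 (chromosome 8, 107293470 to 107379517, plus strand) read 5.52, 5.63 and 5.77 FPKM in the vehicle libraries and 5.59, 7.03 and 6.46 FPKM in the D-serine libraries. D-serine replicate 1 lay among the vehicle libraries and the other two above them. The means were 5.64 ± 0.128 and 6.36 ± 0.724 FPKM (SD, n = 3 each), which differ by 0.14 ± 0.11 on the log2 scale (SE, limma adjusted p = 0.401), with a 95% interval from -0.11 to 0.39. It was 0.22 without D-serine replicate 1, 0.08 without D-serine replicate 2 and 0.31 after the adjustment for length and GC content, none of which passed. Per length and on the mean of either group, the order of the measurable members was Sord, Slc6a6, Slc5a3 and Nfat5. The ranges of Slc5a3 and Nfat5 overlapped in the D-serine group and not with vehicle, and all other neighbours in that order were apart in both groups.

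The other genes of osmolyte chemistry were taken from lists of known enzymes and carriers, in which limma called 0 genes throughout. Counts at an unadjusted p under 0.05 in each list below stand beside the shares of all tested genes. These were 14.6% lower, 13.1% higher and 27.7% in either direction. Of 6 taurine genes, 5 were lower (median log2 difference -0.19), and at an unadjusted p under 0.05 there were 2, both lower. Csad, the decarboxylase that makes hypotaurine, read 157.5, 171.1 and 162.1 FPKM in the vehicle libraries and 107.1, 106.9 and 111.9 FPKM in the D-serine libraries, 2 tight groups far apart (log2 difference -0.59 ± 0.08 SE, n = 3 each, limma adjusted p = 0.0572). Slc36a1, a proton-coupled amino acid carrier, was at 32.2 ± 1.66 and 25.7 ± 4.06 FPKM (n = 3 each, limma adjusted p = 0.153). For Csad and Slc36a1 all D-serine libraries lay below all vehicle libraries, as in 19.4% of all tested genes. Csad, a synthesis gene named for its small p, and the taurine uptake gene Slc6a6 were thus both lower by point estimate, and neither passed.

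Myo-inositol genes did not lean one way, with 3 of 6 tested higher and 3 lower (median 0.11, 2 at an unadjusted p under 0.05, both higher). Isyna1, the synthase that makes inositol phosphate from glucose 6-phosphate, read 23.5, 22.5 and 24.6 FPKM in the vehicle libraries and 34.7, 34.9 and 33.6 FPKM in the D-serine libraries. Every D-serine library was above every vehicle library, as in 16.5% of all tested genes. The groups were tight, and the mean was 1.46-fold higher with D-serine (log2 difference 0.53 ± 0.08 SE, n = 3 each, limma adjusted p = 0.0576). After the adjustment for length and GC content the log2 difference of Isyna1 was 0.33 (limma adjusted p = 0.0827). Impa2, an inositol monophosphatase that frees inositol, read 11.1, 9.51 and 9.56 FPKM and then 12.6, 13.6 and 11.6 FPKM in the same order of groups (limma adjusted p = 0.125). Isyna1 and Impa2 were named for having the smallest p of the list. Their point estimates were opposite in sign to that of the uptake gene Slc5a3, and none passed. Miox, the kidney oxygenase that breaks inositol down, was at 2194 ± 392 and 2168 ± 209 FPKM, a log2 difference of -0.01 with a 95% limma interval from -0.35 to 0.33, and its sign turned under 5 of the alternatives.

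Of 14 tested betaine, choline and glycerophosphocholine genes, 8 were lower and 6 higher (median -0.06), with 6 lower and 3 higher at an unadjusted p under 0.05. Chdh, which starts betaine synthesis from choline, read 67.2, 66.6 and 57.4 FPKM in the vehicle libraries and 41.7, 30.0 and 46.5 FPKM in the D-serine libraries (log2 difference -0.70 ± 0.17 SE, n = 3 each, limma adjusted p = 0.0773). Dmgdh, dimethylglycine dehydrogenase of betaine breakdown, was at 68.0 ± 6.32 and 38.4 ± 2.93 FPKM (-0.81 ± 0.11 SE, n = 3 each, limma adjusted p = 0.0572). In both genes every D-serine library was below every vehicle library, as in 19.4% of all tested genes. Of 9 aldo-keto reductase, sugar alcohol and fructose genes, 5 were lower and 4 higher (median -0.02), with 1 in each direction at an unadjusted p under 0.05. Akr1b7, a relative of aldose reductase, was at 2.60 ± 0.893 and 5.34 ± 1.82 FPKM and Glyctk, glycerate kinase, at 60.8 ± 5.78 and 42.3 ± 8.82 FPKM (n = 3 each, limma adjusted p = 0.101 and 0.0997).

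**Figure D3:**
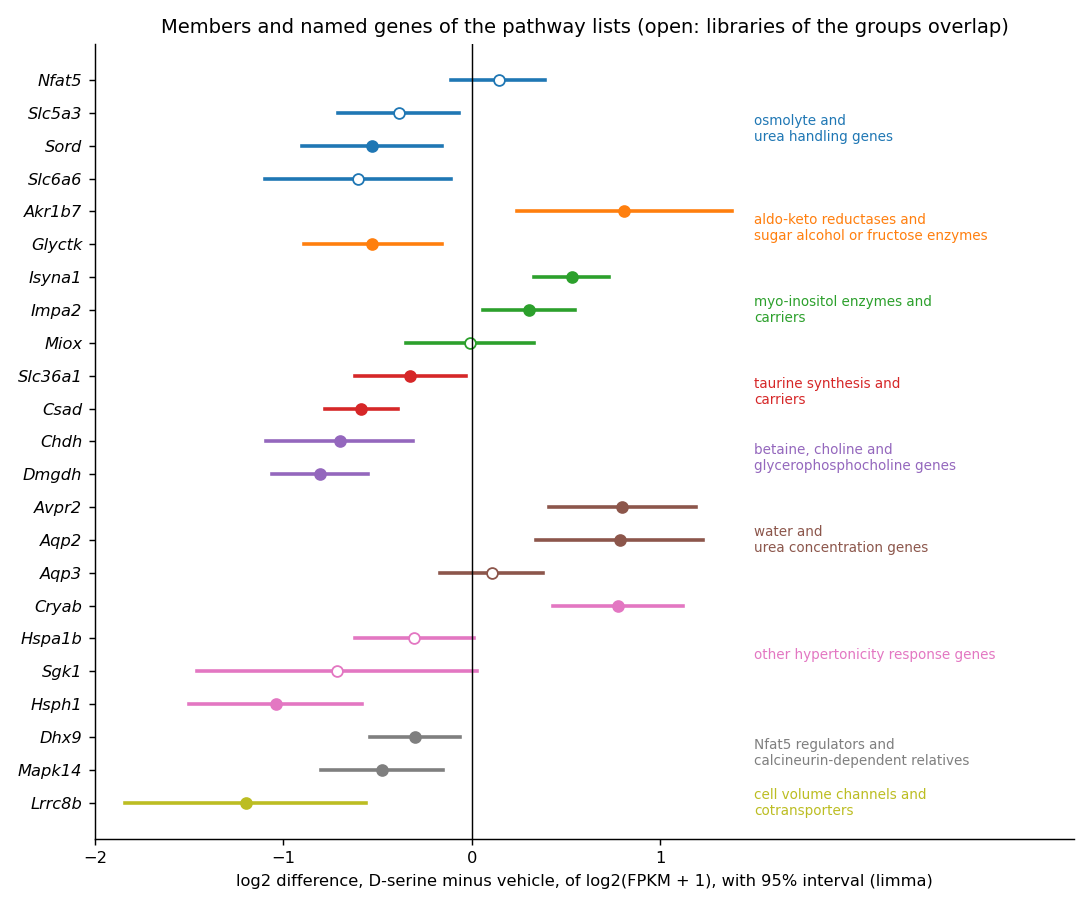
Log2 difference (D-serine minus vehicle, on the log2(FPKM + 1) scale) with its 95% limma interval for the 4 tested members and the named genes of each list, coloured by list; open circles have overlapping groups. Isyna1, Csad and Dmgdh have the smallest adjusted p of these genes, from 0.0572 to 0.0576, and no gene shown passed 0.05.

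Genes of water and urea concentration were higher in 6 of 10 tested (median 0.14), with 4 higher and 1 lower at an unadjusted p under 0.05. The lower one was the water channel gene Aqp1, whose log2 difference of -0.78 was the lowest of the list. Its D-serine libraries were all below its vehicle libraries, as in 19.4% of all tested genes. Aqp2, the vasopressin-regulated water channel, read 110.4, 160.7 and 143.1 FPKM in the vehicle libraries and 255.6, 275 and 187.3 FPKM in the D-serine libraries. Avpr2, the vasopressin receptor upstream of it, read 20.2, 26.7 and 18.9 FPKM and, with D-serine, 43.1, 41.1 and 32.1 FPKM. Both had every D-serine library above every vehicle library, as 16.5% of all tested genes did, with log2 differences of 0.79 ± 0.19 and 0.80 ± 0.17 (SE, n = 3 each, limma adjusted p = 0.0778 and 0.067). After the adjustment for length and GC content, Aqp2 was at 0.53 and Avpr2 at 0.74 (limma adjusted p = 0.128 and 0.0823). Aqp3, the basolateral channel for water and glycerol, was at 78.8 ± 8.45 and 84.9 ± 7.95 FPKM, with overlapping groups and a log2 difference of 0.11 (95% limma interval from -0.17 to 0.38), which ran from 0.01 to 0.18 over the alternatives. Of the 9 tested principal cell markers, 8 were higher (median 0.62, 0 called by limma). The 9 include Aqp2, Avpr2 and Aqp3. At an unadjusted p under 0.05 there were 7, all higher, where 13.1% of all tested genes were higher at that level. The part of the principal cell markers in the Aqp2 and Avpr2 values was not tested.

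Other genes known to respond to hypertonicity were lower in 7 of 11 tested (median -0.06), with 2 lower and 2 higher at an unadjusted p under 0.05. Over all tested genes, 14.6% were lower and 13.1% higher at that level. Hsph1, a chaperone of the HSP110 family, was at 70.0 ± 9.41 and 34.1 ± 9.28 FPKM (log2 difference -1.04 ± 0.20 SE, n = 3 each, limma adjusted p = 0.0611). Cryab, a small heat shock protein, was at 31.2 ± 1.84 and 54.7 ± 10.2 FPKM (0.78 ± 0.15 SE, n = 3 each, limma adjusted p = 0.0629). After the adjustment for length and GC content, Hsph1 was at -0.94 and Cryab at 0.59 (limma adjusted p = 0.0685 and 0.0984). These 2 stress proteins thus had opposite signs, each with groups that did not overlap. Of all tested genes, 19.4% separated downward and 16.5% upward in this way. Hspa1b, an inducible HSP70, was at 7.01 ± 1.19 and 5.45 ± 0.447 FPKM, with overlapping groups. Sgk1, a kinase that raises sodium transport, read 36.6, 85.1 and 89.6 FPKM in the vehicle libraries and 43.9, 37.2 and 37.7 FPKM in the D-serine libraries, and vehicle replicate 1 lay below all D-serine libraries; the log2 difference was -0.72, and -1.13 without that library (limma adjusted p = 0.193 and 0.127).

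Among regulators of NFAT5 and its calcineurin-dependent relatives, 7 of 10 tested were lower (median -0.19), with 4 lower and 1 higher at an unadjusted p under 0.05. Mapk14, the p38 kinase that acts upstream of NFAT5, was at 53.8 ± 6.43 and 38.4 ± 5.23 FPKM and Dhx9, an RNA helicase, at 24.4 ± 1.73 and 19.6 ± 1.74 FPKM (n = 3 each, limma adjusted p = 0.0972 and 0.122). The log2 difference of Dhx9 was -0.30, and -0.19 after the adjustment for length and GC content. Of 11 tested cell volume channels and cotransporters 9 were lower (median -0.15), with 5 at an unadjusted p under 0.05, all lower. At that level, 14.6% of all tested genes were lower and 13.1% higher. Lrrc8b, a subunit of the volume-regulated anion channel that also passes osmolytes, was at 3.59 ± 1.27 and 0.990 ± 0.493 FPKM (-1.20 ± 0.27 SE, n = 3 each, limma adjusted p = 0.0737), and -1.82 and -1.94 with pseudocounts of 0.1 and 0.01 FPKM.

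**Figure D4:**
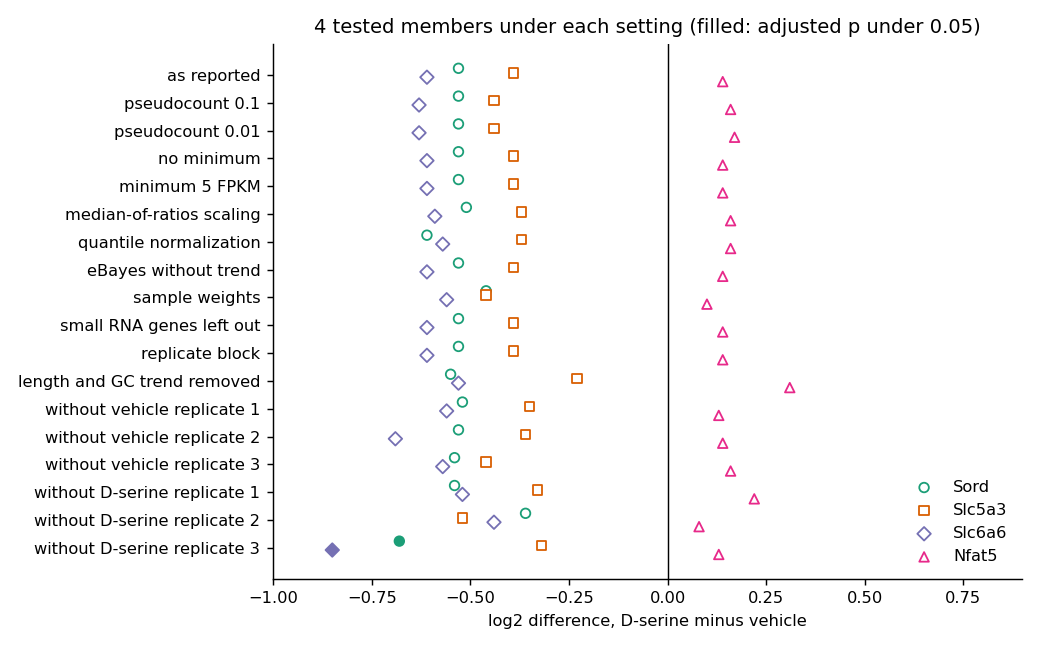
Log2 difference (x axis, D-serine minus vehicle) of Sord, Slc5a3, Slc6a6 and Nfat5 under each of 18 settings (y axis), filled where the limma adjusted p was under 0.05. Sord, Slc5a3 and Slc6a6 stay below 0 and Nfat5 above it, and the 2 filled points, Sord and Slc6a6, are those without D-serine replicate 3.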

How the data were processed

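Kidney messenger RNA of 3 vehicle and 3 D-serine samples was isolated with TRIzol and, per the labels' protocols, turned into TruSeq stranded mRNA libraries. The authors deposited FPKM, 1 table a sample; TopHat2 2.0.13, Bowtie2 2.2.3, SAMtools 0.1.19, Cufflinks 2.2.1 and the build mm10 are named in the submitters' processing notes. The sources used here do not give the annotation or whether strand was used. FPKM hold no counts; the spacing of low values gave relative depths from 0.836 (D-serine replicate 2) to 1 (vehicle replicate 1), and 44 genes with 1 transcript a rough 7100000 to 8490000 mapped fragments, from which no interval was computed. No 2 libraries were identical.

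The 11737 genes whose mean reached 1 FPKM, 4 members among them, were tested with limma 3.58.1 in R 4.3.3 (eBayes with trend, two-sided) on log2(FPKM + 1), which understates changes of low genes. Benjamini-Hochberg adjustment ran over all of them. Within-library differences used an exact permutation test (scipy 1.17.1). The test was tried on simulated data. The members and lists were chosen with earlier results of these data known. All 8 members are named, with the 2 members of each list with the smallest p (1 such gene is not reported here), 6 fixed genes (Aqp2, Aqp3, Miox, Sgk1, Hspa1b and Chdh), and the 2 genes most like each tested member over the 6 libraries. Positions and exons came from GENCODE M21 (mm10), promoters from RefSeq for 4 of 8 members. Promoters of Akr1b3, Slc6a6, Slc14a1 and Slc14a2 were not searched. Alternatives were other pseudocounts, minimums, scalings and weights, no trend, no small RNA genes, a replicate block, each library left out and, added after seeing the data, removal of a loess trend (span 0.5) on transcript length and GC content.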

Additional observations from a re-analysis of the deposited data

How the results depend on the processing

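Over 17 alternatives, Sord stayed between -0.68 and -0.36 on the log2 scale, Slc6a6 between -0.85 and -0.44, Slc5a3 between -0.52 and -0.23 and Nfat5 between 0.08 and 0.31, and 0 of these 4 changed sign. The count of members called was 0 except without D-serine replicate 3, where it was 2 (range 0 to 2 without 1 library). The count of genes called, 9, moved to 171 and 221 with pseudocounts of 0.1 and 0.01 FPKM, to 132 with a minimum of 5 FPKM, to 15 with median-of-ratios scaling, to 269 with sample weights and to 332 without small RNA genes, and it ran from 2 to 437 without 1 library at a time; the cause was not tested. With the replicate block it was 2. Same-numbered samples had deviations correlated at -0.07, 0 and 0.07, so the numbers were not taken to pair the samples. Miox turned to 0.01 (median-of-ratios scaling), 0.03 (sample weights), 0.13, 0.01 and 0.05 (without vehicle replicate 3 and D-serine replicates 1 and 2), in a range from -0.09 to 0.13 without 1 library. With the small RNA genes left out, Csad, Dmgdh, Isyna1, Hsph1, Cryab and Avpr2 passed (limma adjusted p from 0.0384 to 0.0474). Csad, Dmgdh and Isyna1 also passed with both smaller pseudocounts, with a minimum of 5 FPKM, with sample weights and without D-serine replicate 3. Hsph1 also passed with a pseudocount of 0.01 FPKM, with sample weights and without D-serine replicate 3. Cryab also passed with that pseudocount and without D-serine replicate 1. Without D-serine replicate 3, Avpr2, Aqp2 and Glyctk passed as well. These genes passed in no other alternative. At this depth Slc6a12, Slc14a1 and Slc14a2 allow no comparison.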

Other observations

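Likeness over the 6 libraries was measured by Pearson r of log2(FPKM + 1) among the 7837 tested genes whose mean reached 5 FPKM and that are neither predicted (Gm, Rik) nor small RNA genes; with so many genes and 6 libraries, high values arise readily and no p is given. Nearest to Sord were Nadk2, the mitochondrial NAD kinase (r = 0.998), and Ap1ar (r = 0.997), with log2 differences of -0.36 and -0.44. Nearest to Slc6a6 were Cth, the enzyme that releases cysteine, the precursor of taurine (r = 0.994, log2 difference -0.33), and the lysosomal mannosidase gene Man2b1 (r = 0.991, -0.36). Nearest to Slc5a3 were Gosr1 (r = 0.987) and Slc25a40 (r = 0.978), and nearest to Nfat5 were Cpsf7 (r = 0.994) and Hoxb8 (r = 0.991). The genes were chosen for following a member over the same libraries, so their differences repeat that choice.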
